A study of Mus musculus with 2 samples.

Results

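This report describes 10 genes measured in mouse melanoma cells: the aldo-keto reductases *Akr1b3*, *Akr1b7* and *Akr1b8*, the transcription factor gene *Nfe2l2*, which encodes NRF2, and its known target genes *Nqo1*, *Hmox1*, *Gclc*, *Gclm*, *Txnrd1* and *Srxn1*. They were selected by name, after the low ratio of *Akr1b7* in these same arrays was known, out of 27790 genes or transcripts. All 10 genes are on the arrays, with 17 of the 41164 probes, and all 10 were detected. RNA of the dormant DMC-derived line B16F1-GFP-D was compared with RNA of its maternal line B16F1-GFP-M on 2 Agilent arrays of 1 slide, each of which binds both RNAs to the same spots in different dyes. On array 1 the Cy5 dye carried B16F1-GFP-M and the Cy3 dye B16F1-GFP-D, and on array 2 the dyes were exchanged. B16F1 is a murine melanoma line, and both lines carry a GFP plasmid under selection and grew as untreated cultures in the same medium. B16F1-GFP-D is a single clone, grown from GFP+ cells sorted out of pooled organs of tumour-free control and immunised mice long after they had received the tumour cells. For that reason a difference between the lines and a property of this clone cannot be told apart. Nothing in the labels names separate cultures or extracts, so each line has 1 replicate, no test was made, and every SD below is the spread between the dye-swapped arrays.

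Aldo-keto reductases use NADPH to reduce aldehydes and ketones to alcohols. In the mouse, *Akr1b3* encodes aldose reductase, which turns glucose into sorbitol, while *Akr1b7* is best known from the vas deferens and the adrenal gland, where its product reduces an aldehyde left over from steroid synthesis, and *Akr1b8* was described as a growth factor-induced relative. NRF2 is held at a low level by KEAP1 in unstressed cells. Oxidants and electrophiles release it, and it then binds antioxidant response elements together with small MAF proteins, while BACH1 competes for the same elements. Melanocytes meet oxidants during melanin synthesis, which makes these genes of interest in pigment cells.

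The probes read each of these closely related genes in a different stretch of sequence. The first 30 bases of the brightest probe of each *Akr1b* gene are shown to make that visible, together with *Akr1b10*, a paralog from the same locus that is not among the 10 genes. All letters are in lower case because no part of them is singled out.
Akr1b7: gagatccgtgcatgatagattccttcgtct
Akr1b8: aacggacatctccttcactaatttgacctg
Akr1b10: catgttcaactagaagcagactgtcacagg
Akr1b3: ttacccccctggaggactttaacacaagta
The second probe of *Akr1b3* crosses an intron, since its 60 bases cover chr6:34256598-34259013 on the minus strand of mm9, and it is shown whole because it gives an independent reading of that gene.
Akr1b3, second probe: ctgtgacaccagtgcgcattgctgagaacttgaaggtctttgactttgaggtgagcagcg
Laid against each other without gaps, the *Akr1b7* probe and any probe of these paralogs had at most 23 of 60 bases in common, and no shared run was longer than 8 bases. Binding of a probe to the transcript of a paralog was not tested.

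*Akr1b7* was far lower in B16F1-GFP-D. Its single probe lies at chr6:34372905-34372964 on the plus strand of mm9. The spot signal before any correction was 3940 in B16F1-GFP-M against 67.7 in B16F1-GFP-D on array 1, with local backgrounds of 83 and 19. On array 2, where the dyes were exchanged, it was 1171 in B16F1-GFP-M against 237 in B16F1-GFP-D, with backgrounds of 15.5 and 80. The low line was therefore low in either dye, yet its spot exceeded the background clearly in every channel. After background correction and normalization, the log2 intensity was 11.13 and 11.05 in B16F1-GFP-M and 7.25 and 6.90 in B16F1-GFP-D. The log2 ratio, with B16F1-GFP-D over B16F1-GFP-M here and below, was -3.87 on array 1 and -4.15 on array 2, with a mean of -4.01 ± 0.19 (SD, 2 arrays), or 16.1-fold lower. This size depends on the background correction, with a mean of -4.79 at an offset of 0 in place of 50 and of -5.12 in the scanner software's ratio. Since these are bulk cultures, less transcript in each cell and fewer cells that have it cannot be told apart. Only *Neat1* had a lower ratio among the 12540 detected genes, that is, genes whose probe was well above background on each array in one line or in both. With the scanner software's ratio, an offset of 0, no background subtraction or median centring, *Akr1b7* itself was the lowest.

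A gene was called when its difference was past 2-fold, with a like sign, on each array, so that a call states a size and carries no test. Over all genes 630 were called, or 5.02% of those detected, of which 387, or 3.09%, were higher and 243, or 1.94%, were lower in B16F1-GFP-D. Among the 10 genes, 2 were called, *Akr1b7* and *Hmox1*, both lower. Of these, *Akr1b7* was one of the values that chose the list, so the count describes the list and supports nothing. The median log2 ratio of the 10 genes was -0.20, beside -0.0081 over all detected genes.

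**Figure D1:**
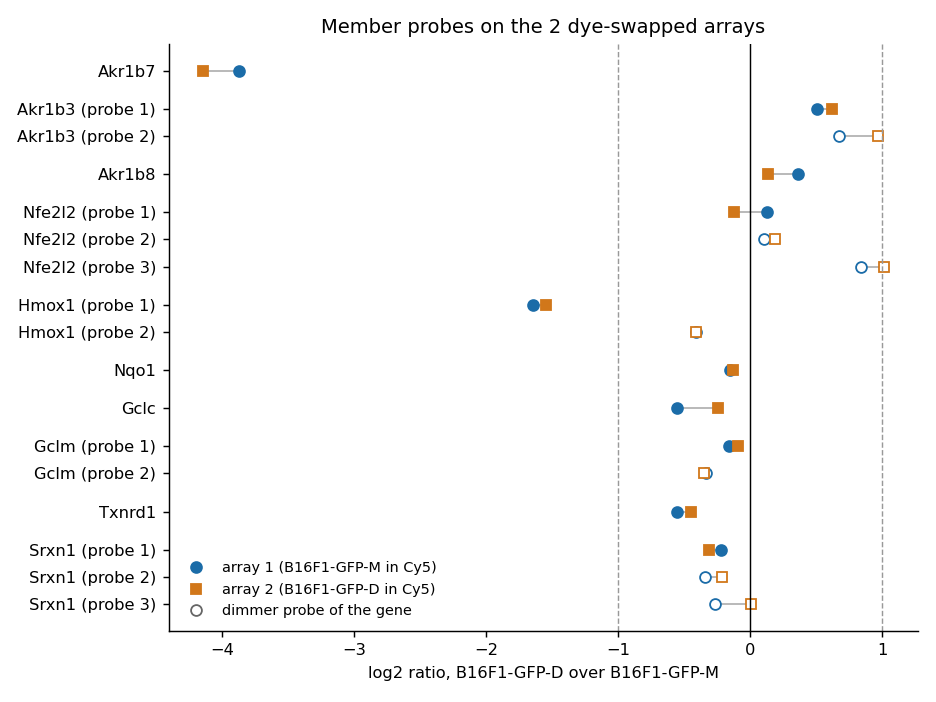
Log2 ratio (B16F1-GFP-D over B16F1-GFP-M) for the 17 probes of the 10 genes. Circles are array 1 and squares array 2, filled for the brightest probe of a gene and open for its dimmer probes, and the dashed lines mark 2-fold; *Akr1b7* stands at -3.87 and -4.15, and only it and the bright probe of *Hmox1* lie past the lower line.

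The closest paralogs were not lower together with *Akr1b7*. *Akr1b3* had log2 intensities of 13.11 and 12.80 in B16F1-GFP-M and of 13.62 and 13.42 in B16F1-GFP-D, so that B16F1-GFP-D had more of it on either array. Its log2 ratio was 0.51 and 0.62, with a mean of 0.56 ± 0.08 (SD, 2 arrays), or 1.48-fold. The intron-crossing probe gave 0.68 and 0.97, with a mean of 0.82, in the same direction and also below 2-fold. *Akr1b8* had 13.63 and 13.77 in B16F1-GFP-M and 14.00 and 13.90 in B16F1-GFP-D. The log2 ratio of *Akr1b8* was 0.36 and 0.14, with a mean of 0.25 ± 0.16 (SD, 2 arrays), or 1.19-fold. For *Akr1b10* it was 0.32 and 0.26 at the bright probe, with a mean of 0.29, and 0.43 as the mean of a dim second probe.

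The gap between *Akr1b7* and these paralogs was of similar size on each array. *Akr1b7* minus *Akr1b3* was -4.38 on array 1 and -4.77 on array 2 in log2 ratio, with a mean of -4.58 ± 0.27 (SD, 2 arrays). Against *Akr1b8* the mean difference was -4.26 ± 0.03, and against *Akr1b10* it was -4.30 ± 0.15. These gaps restate the low ratio for which *Akr1b7* was selected and are given as a description. They compare ratios, not levels, because signals of different probes cannot be set against each other.

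**Figure D2:**
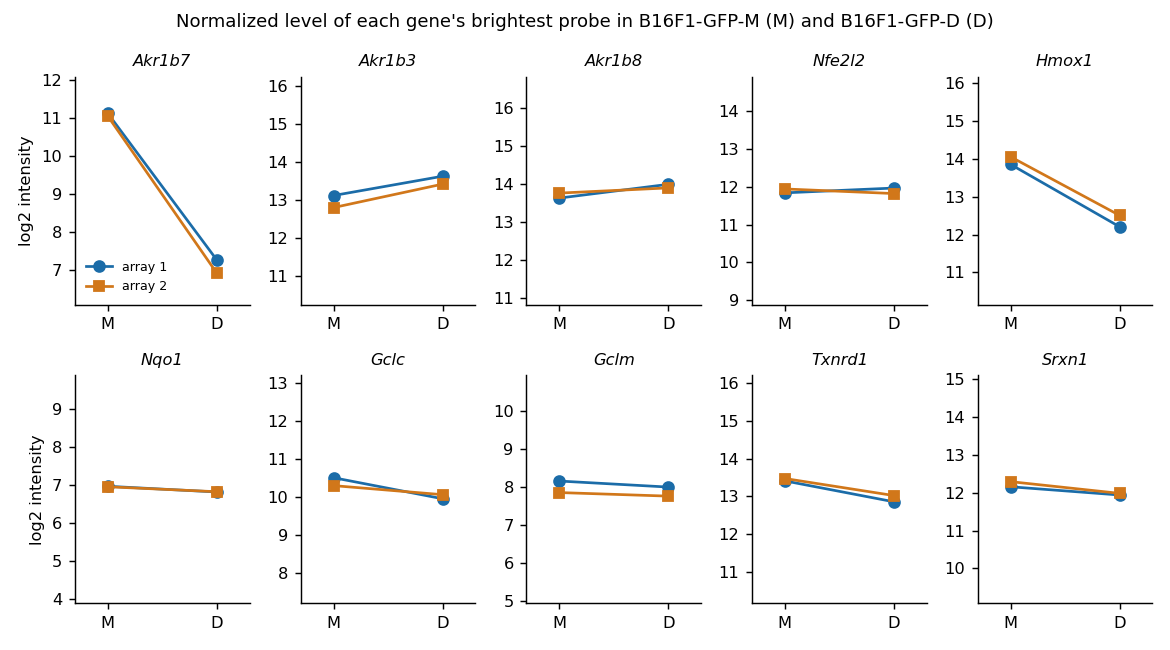
Normalized log2 intensity of the brightest probe of each of the 10 genes in B16F1-GFP-M (M) and B16F1-GFP-D (D), with 1 line per array and the same span of log2 units in each panel. *Akr1b7* drops from 11.13 and 11.05 to 7.25 and 6.90, *Hmox1* has the next steepest slope, and the other panels are close to level.

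The same held across the family. Of 17 aldo-keto reductase genes listed, 16 were matched to a probe and 9 were detected, and 8 of these 9 had a positive ratio on each array, with *Akr1b7* the exception. Leaving out *Akr1b7*, the median log2 ratio of the other 8 was 0.35, with values from 0.13 to 0.83, and none was called. For comparison, 41.0% of all detected genes were higher on each array and 42.8% lower, and 5.02% were called. The highest was *Akr1c19*, with 0.76 and 0.90, followed by *Akr1c12*, with 0.63 and 0.57, both in the branch of the family that acts on steroids and related alcohols. *Akr7a5*, which reduces succinic semialdehyde, had a mean of 0.41, and *Akr1a1*, the general aldehyde reductase, had 0.25. *Akr1e1*, which reduces an anhydro sugar, had the lowest value of these 8, with 0.17 and 0.09. A second probe of *Akr1c19* and one of *Akr1e1* were not above background and gave -0.0063 and -0.01. All 8 genes had a mean above 0 under each of the 11 alternatives for the values. Scaling between the arrays (Aquantile) and the filters on dim probes changed none of these values, and each array alone repeats the signs above.

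On the chromosome, the low ratio of *Akr1b7* had no counterpart in neighbouring genes. The probes of the 4 *Akr1b* genes span 119 kb of mm9 chromosome 6, in the order *Akr1b3*, *Akr1b8*, *Akr1b10* and *Akr1b7*. Within 500 kb on either side of them there are 19 genes or transcripts, of which 13 were detected, and 9 of the detected ones are not *Akr1b* genes. None of these 9 was called, but only 5.02% of all detected genes were, so a lack of calls is not particular to this stretch. Their means ran from -0.70, for the membrane protein gene *Tmem140*, to 0.53, for *Bpgm*, which encodes the enzyme that makes bisphosphoglycerate and lies 81.9 kb from the *Akr1b7* probe. *Bpgm* was higher on both arrays, with 0.28 and 0.78, a wide spread. The median over the 634 detected genes of chromosome 6 was -0.03.

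**Figure D3:**
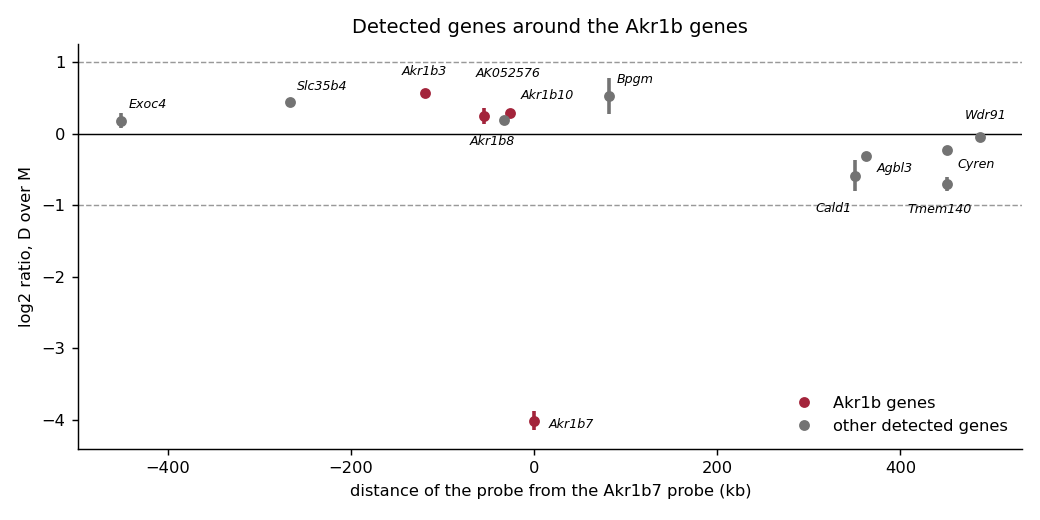
Mean log2 ratio of the detected genes around the *Akr1b* locus, by distance of the probe from the *Akr1b7* probe in kb. Vertical lines join the values of the 2 arrays and dashed lines mark 2-fold; *Akr1b7* lies at -4.01 and every other gene shown lies between -0.70 and 0.56.

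By size of ratio, the genes nearest to *Akr1b7* were *Neat1*, *Nupr1* and *Timp3*, chosen by the distance of their mean log2 ratio on these 2 arrays and not by any profile over conditions. *Neat1*, a nuclear non-coding RNA that builds paraspeckles, had -3.99 and -4.22. *Nupr1*, a stress-induced nuclear protein gene, had -3.52 and -3.61. *Timp3*, which encodes an inhibitor of metalloproteinases, had -3.25 and -3.50. All of them were measured well above background in both lines.

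The gene of NRF2 itself had no stable difference. *Nfe2l2* was read by 3 probes. The brightest, at chr2:75513771-75513830 on the minus strand of mm9, had log2 intensities of 11.84 and 11.94 in B16F1-GFP-M and of 11.96 and 11.82 in B16F1-GFP-D, so that the lines overlapped. Its log2 ratio was 0.13 on array 1 and -0.12 on array 2, with a mean of 0.0027 ± 0.18 (SD, 2 arrays). A second probe for the same RefSeq transcript had 0.10 and 0.19. The third probe, which was designed for another Ensembl transcript of the locus and lies closer to background, had 0.84 and 1.02, with a mean of 0.93. The third probe was thus higher in B16F1-GFP-D on either array and past 2-fold on array 2 alone. Neither of the 2 probes of the main transcript was past 2-fold. Whether the third probe reads that other transcript in these cells was not tested. Over the alternatives the value of *Nfe2l2* lay between -0.12 and 0.20 and changed sign.

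*Hmox1* encodes heme oxygenase 1, which splits heme into biliverdin, iron and carbon monoxide. Its bright probe, at chr8:77624207-77624266 on the plus strand of mm9, had log2 intensities of 13.85 and 14.05 in B16F1-GFP-M and of 12.20 and 12.50 in B16F1-GFP-D. The lines were far apart on both arrays. The log2 ratio was -1.65 and -1.55, with a mean of -1.60 ± 0.07 (SD, 2 arrays), or 3.03-fold lower, and it ranked 56 from the bottom of the 12540 detected genes, a rank that lay between 53 and 226 under the alternatives. The second probe, for another Ensembl transcript, was close to background and not well above it in B16F1-GFP-D on array 1. It had -0.41 on both arrays, in the same direction and far smaller as reported, but this gap depended on the background correction. With an offset of 0 the dim probe had a mean of -0.85, against -1.65 for the bright probe. With the scanner software's ratio the means were -1.38 for the dim probe and -1.63 for the bright probe. The first 30 bases of both probes are given because the call rests on the first of them.
Hmox1, bright probe: atggttgtaagcatccatgttgactgacca
Hmox1, dim probe: acatgtattctgagttggtcccgttatatt
With the median of both probes the mean of *Hmox1* was -1.003 and the gene was not called, and neither was it called with median centring in place of loess, where its mean was -1.32, from -2.70 on array 1 and 0.06 on array 2.

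The other 5 target genes were slightly lower in B16F1-GFP-D and none was called. *Txnrd1*, whose product thioredoxin reductase 1 recharges thioredoxin with NADPH, was the lowest of these, with 13.41 and 13.47 in B16F1-GFP-M and 12.86 and 13.02 in B16F1-GFP-D. That gave a log2 ratio of -0.55 and -0.45, with a mean of -0.50 ± 0.07 (SD, 2 arrays), or 1.42-fold lower. *Gclc* encodes the catalytic subunit of glutamate-cysteine ligase, the first enzyme of glutathione synthesis. Its levels were 10.51 and 10.30 in B16F1-GFP-M and 9.95 and 10.06 in B16F1-GFP-D, and its log2 ratio was -0.56 and -0.24, with a mean of -0.40 ± 0.22 (SD, 2 arrays). The arrays differed from each other by nearly as much as the mean. *Gclm*, the modifier subunit of the same enzyme, was dim, with a log2 ratio of -0.16 and -0.09 at its brighter probe and of -0.34 and -0.35 at the other.

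*Srxn1* encodes sulfiredoxin, which repairs over-oxidised peroxiredoxins. Its brightest probe had log2 intensities of 12.15 and 12.29 in B16F1-GFP-M and of 11.94 and 11.98 in B16F1-GFP-D, and a log2 ratio of -0.22 and -0.31, with a mean of -0.26 ± 0.07 (SD, 2 arrays). Its other probes had means of -0.27 and -0.13, and the last of these had 0.0076 on array 2. *Nqo1*, a quinone reductase often used as a readout of NRF2, was close to background, with 6.97 and 6.95 in B16F1-GFP-M and 6.82 on both arrays in B16F1-GFP-D. At this signal a change in *Nqo1* would be drawn towards 0 by the background correction, and its log2 ratio of -0.15 and -0.13 became -0.35 with the ratio of the scanner software.

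All 6 target genes, *Hmox1* included, thus had negative ratios on each array at their brightest probe, with a median log2 ratio of -0.33, where 42.8% of all detected genes were lower on both. Their means stayed below 0 under each of the 11 alternatives for the values, but not all of these could alter them. Scaling between the arrays (Aquantile) and the filters on dim probes left each value as it was. The value table is a rounded copy of the scanner ratio, and each array alone repeats the signs given above. Among these 6 genes, apart from *Hmox1*, the sizes were below 1.5-fold, and the smallest was that of *Gclm*, 1.09-fold.

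**Figure D4:**
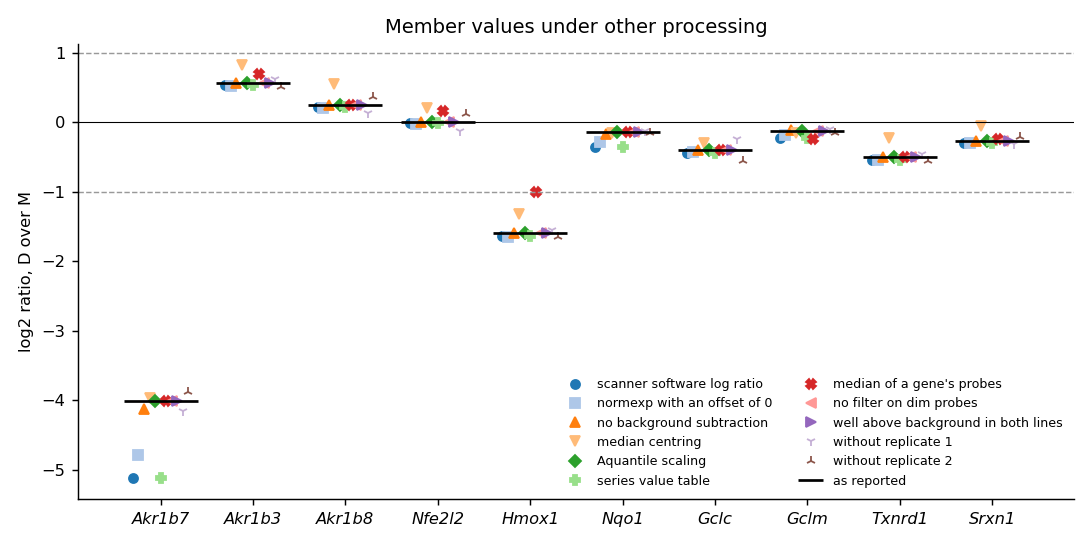
Log2 ratio of each of the 10 genes as reported (bars) and under 11 alternatives of the processing (symbols), with 2-fold as dashed lines. *Akr1b7* lies between -5.12 and -3.87 throughout, *Hmox1* reaches -1.003 with the median of its probes, and *Nfe2l2* lies on both sides of 0.

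The promoter windows of the RefSeq table, which run from 250 bases before to 50 bases after a gene's start on GRCm38.p6, were searched on both strands for TGACNNNGC, the core of the antioxidant response element. It occurred in 12.4% of all 32851 windows. Of the 10 genes, 7 matched the table, with 9 windows, and 4 of the 7 had a match, which describes the letters in the window and not a bound site. The windows of *Akr1b7*, *Akr1b8* and *Nqo1* had none, *Srxn1* had one after its start, and *Akr1b3*, *Hmox1* and *Gclc* were not matched. The matches before a start are shown because these genes, all known to be tied to NRF2, had small differences here. Capitals mark the match, which reads on the plus strand of the gene for *Nfe2l2* and on the minus strand for the other 2.
Nfe2l2, 240 bases before the start: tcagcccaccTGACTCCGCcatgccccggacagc
Gclm, 134 bases before the start: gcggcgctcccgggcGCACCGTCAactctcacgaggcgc
Txnrd1, 92 bases before one of its 3 starts: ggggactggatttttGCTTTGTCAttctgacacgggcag
On GRCm38.p6 these stretches are chr2:75704880-75704913 on the minus strand, and chr3:122245408-122245446 and chr10:82859099-82859137 on the plus strand.

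Around these genes, 5 lists of the oxidative stress response held 124 genes on the arrays, of which 113 were detected. Of these, 48 were higher and 50 lower on each array, and 13 were called, 5 higher and 8 lower, beside the 5.02% of the whole table. Their median log2 ratio was 0.05. About as many genes were thus higher as lower, and the called genes were spread over glutathione, thioredoxin, heme and NADPH.

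Among 14 detected regulators of NRF2, 4 were higher and 5 lower on both arrays, with a median of -0.03. The one called was *Nfe2l1*, the gene of NRF1, a relative of NRF2 that controls proteasome genes. It was bright and lower in B16F1-GFP-D, with -1.42 and -1.34. *Sqstm1*, which encodes p62, an autophagy receptor that binds KEAP1 and is itself an NRF2 target, had -1.61 on array 1 and -0.84 on array 2 and missed the rule. The small MAF gene *Maff* had 0.93 and 1.04, and *Dpp3*, whose product also binds KEAP1, had 0.69 and 0.91. Both were higher in B16F1-GFP-D and short of 2-fold on at least 1 array. *Keap1* and *Bach1*, named for their role and after their values were seen, had -0.13 and 0.34, and -0.44 and -0.47. The other small MAF genes, named in the same way, did not follow *Maff*. *Mafg* was lower on both arrays, with -0.73 and -0.64, and *Mafk* had -0.08 and 0.31.

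The glutathione list was the longest. Of its 37 detected genes, 11 were higher and 22 lower on both arrays, with a median of -0.22, and 1 was called higher and 4 lower. *Slc7a11* and *Slc3a2* encode both chains of the cystine importer that feeds glutathione synthesis, and both were lower. *Slc7a11* had log2 intensities of 10.37 and 10.29 in B16F1-GFP-M and of 8.27 and 8.35 in B16F1-GFP-D, a mean log2 ratio of -2.02. The other 3 of its probes had means of -1.78, -1.20 and, for the dimmest, -0.04. *Slc3a2* had -1.12 on both arrays, but -0.43 as the mean of a second probe, and with the median of the probes it was not called. *Chac1*, whose product breaks glutathione down, had 14.08 and 14.15 in B16F1-GFP-M and 11.76 and 12.17 in B16F1-GFP-D, a mean log2 ratio of -2.15. *Slc7a11*, *Slc3a2* and *Chac1* are also known targets of ATF4, the transcription factor of the amino acid response. Whether ATF4 or NRF2 had a part in these values was not tested.

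Of the glutathione transferases, *Gsta4*, which removes the lipid peroxidation product hydroxynonenal, was called higher, with 2.18 and 2.41, a mean of 2.29 ± 0.17 (SD, 2 arrays). *Gsta3*, from the same alpha class, was called lower, with -1.70 and -1.64 and a mean of -0.85 at a second probe. *Gsta3* and *Gsta4* thus differed in opposite directions, as did *Akr1b7* and its paralogs. The other listed alpha-class genes, named after their values were seen, were higher without being called. *Gsta1* had 0.95 and 0.79, and *Gsta2* had 0.94 and 0.84. Cross-binding among the transferases, which are much alike in sequence, was not tested.

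In the thioredoxin and peroxiredoxin list, 11 of 22 detected genes were higher and 10 lower on both arrays, with a median of 0.10. *Txn1*, thioredoxin itself, was called higher, with log2 intensities of 12.84 and 12.91 in B16F1-GFP-M and of 13.95 and 14.06 in B16F1-GFP-D, a mean ratio of 1.13. Its inhibitor *Txnip* was called lower, with -1.44 and -1.50, while a second probe gave a mean of -0.99. Thioredoxin and its inhibitor thus differed in opposite directions while *Txnrd1* was slightly lower. The mitochondrial reductase *Txnrd2* had 0.87 and 0.91, and *Msrb3*, which repairs oxidised methionine, had -0.90 and -0.59.

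Of 22 detected genes for quinones, carbonyls, heme and iron, 11 were higher and 7 lower on both arrays, with a median of 0.09. Beside *Hmox1*, the called gene was *Ugdh*, which makes the sugar acid used in glucuronidation, higher with 1.45 and 1.39. The next by size were lower without being called. *Blvrb*, a biliverdin reductase, had -0.75 and -0.90, and *Slc40a1*, the iron exporter ferroportin, had -0.92 and -0.79.

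NADPH serves the aldo-keto reductases, thioredoxin reductase and glutathione reductase alike. Of 18 genes that supply it, all detected, 11 were higher and 6 lower on both arrays, with a median of 0.18. *Idh2*, the mitochondrial isocitrate dehydrogenase, was called higher, with 9.95 and 10.03 in B16F1-GFP-M and 11.75 and 11.87 in B16F1-GFP-D, a mean log2 ratio of 1.82. *Mthfd1*, a cytosolic enzyme gene of folate metabolism, was called higher with a mean of 1.23. *Aldh1l2*, a mitochondrial folate enzyme gene, was called lower with -2.06, its second probe having -1.96. *Mthfd2*, also mitochondrial, had -1.18 and -0.91 and was not called. Like *Chac1*, *Aldh1l2* and *Mthfd2* are known ATF4 targets, and a part of ATF4 was not tested here either.

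Aldose reductase also belongs to the response of cells to osmotic stress, which is run by NFAT5. Of 6 detected genes of that response and of the sorbitol pathway, 4 were higher on both arrays and none lower, with a median of 0.22. *Slc6a6*, the taurine transporter, was called higher, with 1.66 and 1.47, and a second probe had a mean of 1.24. *Slc5a3*, which imports inositol, had 0.95 and 0.88. *Nfat5* had a mean of 0.25 and the creatine transporter *Slc6a8* one of 0.18. The other 2 detected genes, *Sord* and *Khk* of the sorbitol pathway, are named after their values were seen. Their arrays had opposite signs, with -0.02 and 0.14 for *Sord* and -0.39 and 0.29 for *Khk*.

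**Figure D5:**
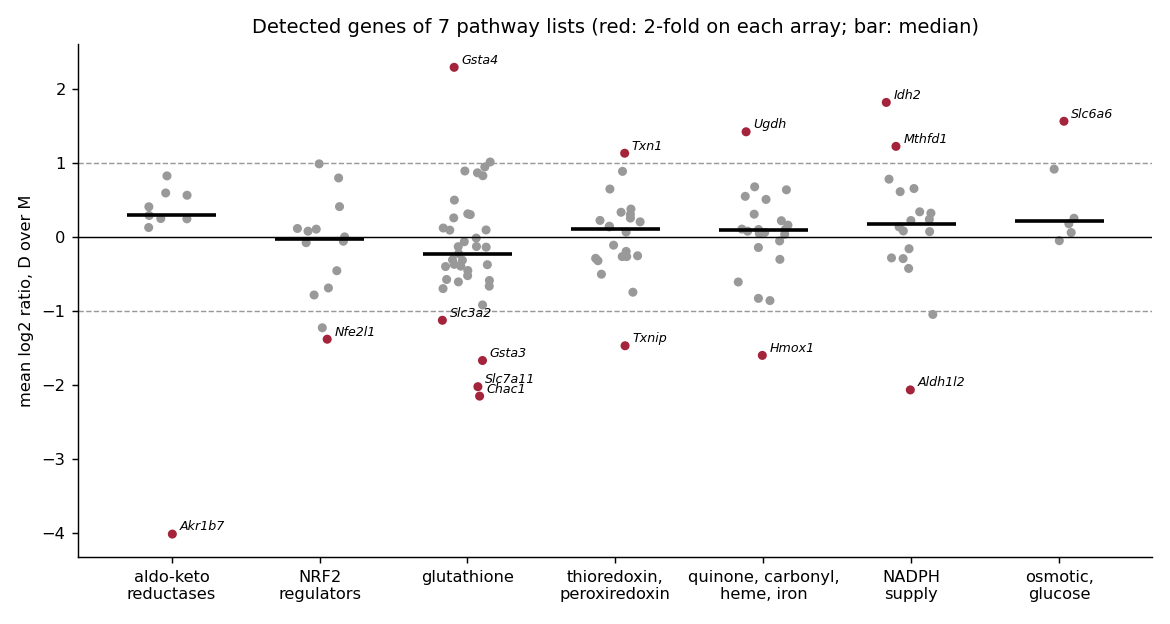
Mean log2 ratio of the detected genes of 7 lists, 1 dot per gene. Red dots are genes past 2-fold on each array, with their names, black bars are list medians and dashed lines mark 2-fold; *Akr1b7*, at -4.01, lies below every other gene shown, and the list medians run from -0.22 to 0.29.

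The calls in these lists depended on the normalization. There were 15 called genes over all 7 lists, and with median centring in place of loess only 3 of them, *Akr1b7*, *Gsta4* and *Aldh1l2*, were still past 2-fold on each array. The means of the other 12 kept their direction, as with 1.97 for *Idh2*, -1.95 for *Slc7a11* and -1.88 for *Chac1*, and the largest shift was that of *Slc3a2*, from -1.12 to -0.80, but the arrays then differed widely. *Idh2*, for example, had 0.76 on array 1 and 3.18 on array 2, and *Hmox1*, *Nfe2l1* and *Slc3a2* changed sign on array 2, with 0.06, 0.20 and 0.59. Median centring takes out no dye difference that changes with brightness, and the part of such a difference in these shifts was not tested.

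Markers of the labelled cell type were present. Of 12 melanocyte genes 11 were detected, none was called, and their median log2 ratio was -0.34, with 3 higher, 6 lower and 2 of opposite sign on the arrays. *Mitf* had the lowest mean, -0.92, followed by *Dct* with -0.78, while *Gpnmb* had the highest, 0.53. Markers of host cells were mostly not detected, with 4 of 10 for fibroblasts, 2 of 10 for leukocytes, 1 of 6 for endothelial cells and none of 6 for hepatocytes and of 6 for epithelial cells. *Pdgfrb* was not well above background in B16F1-GFP-M on either array and was at least 1.68-fold higher in B16F1-GFP-D, a bound of 0.75 in log2. *Col1a1* had a mean of 0.40, whereas *Col1a2*, the only fibroblast marker well above background in both lines, had -0.33 on each array. *Vwf* had a mean of 0.72, *Lyz2* -0.11 and *Cd3e* -0.0071, all but *Lyz2* close to background. Of 5 matched markers of adrenal steroid cells, which have *Akr1b7*, *Nr5a1* alone was detected, near background, at -0.06. The part of such cells in the values above was not tested.

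On these arrays 44.1% to 60.7% of spots were well above background, the signal of a median spot was 1.66 to 2.60 times its background, and no spot was saturated. Between the arrays the pooled SD of a log2 ratio was 0.15, and the precision is limited by having 2 arrays.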

How the data were processed

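The 2 dye-swapped Agilent arrays of B16F1-GFP-D against B16F1-GFP-M were counted as 1 replicate per line. The deposited intensity values, for spots and their surrounding background, were read by the authors with Agilent Feature Extraction 10.7.3.1 and are not normalized. The deposited log10 ratio, of Cy5 over Cy3, was made by the authors' software from signals that it had background-subtracted and scaled between dyes. A rounded copy of these log10 values, with the dye swap not undone, is the series value table, and both served as alternatives. The software's p-values, which model a single spot, were not used.

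In R 4.3.3 with limma 3.58.1, outlier spots (143 and 176) were left out, signals were corrected by normexp with an offset of 50, which draws dim ratios towards 0, and normalized by loess within each array. Ratios were expressed as log2, with B16F1-GFP-D as the numerator. Of 41174 probes, 41164 remained. Symbols came from RefSeq accessions (GRCm38.p6, 27192 of 28069 probes matched, sequences of promoters from the same source), positions on mm9 from the array files. A gene was read from its brightest probe. Tables and figures used Python 3.11.15, pandas 2.3.3 and matplotlib 3.10.9.

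The 10 genes and all lists were chosen with earlier results of these data known. Named genes were the 10, called genes and up to 4 of the largest ratios per list, detected paralogs, the 3 genes nearest to *Akr1b7* and up to 2 markers per cell type. Some further list genes were named after their values were seen, as stated where they appear. A bound for a gene dim in one line set the bright line against a floor on each array. That floor was the lowest signal among probes well above background, or the gene's own signal in the dim line where that was higher. Alternatives were an offset of 0, no background subtraction, the scanner ratio, the value table, Aquantile scaling, median centring, the median of a gene's probes, other filters on dim probes, each array alone and other thresholds. The procedure was run on simulated arrays in which only probes clear of the background were changed. That run does not cover dim probes such as that of *Nqo1*. Protein sequences were not used here, and *Akr1c13*, *Gstp2*, *Hrg1*, *Ugt1a6a* and *Cyp11b1* were not matched. Cells of the second generation (B16F1-GFP-DB) were not used here.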

Additional observations from a re-analysis of the deposited data

How the results depend on the processing

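*Akr1b7* was called under every alternative, with log2 ratios of -5.12 with the scanner ratio, -5.12 with the value table and -4.79 with an offset of 0. Its difference from *Akr1b3*, *Akr1b8* and *Akr1b10* was -5.66, -5.34 and -5.42 with the scanner ratio, -5.66, -5.33 and -5.41 with the value table and -5.32, -5.00 and -5.06 with an offset of 0. Against *Akr1b8* it was -4.38 without background subtraction, and with median centring it was -4.53 against *Akr1b8* and -4.49 against *Akr1b10*. The count of called genes was 1356 with the scanner ratio, 1352 with the value table, 1077 with an offset of 0, 64 with median centring, 1980 at 1.5-fold and 123 at 3-fold. Of the 10 genes, 1 was called with median centring, with the median of probes and at 3-fold, since *Hmox1* was lost.

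List medians also moved. That of the NRF2 regulators, -0.03 as reported, was 0.093 with median centring, 0.0079 with the median of probes, 0.0027 in genes above background in both lines, and -0.114 and 0.038 from the arrays taken singly, so it has no direction. With median centring the medians were 0.56 for aldo-keto reductases, -0.13 for glutathione, 0.28 for thioredoxin, 0.21 for quinones, heme and iron, 0.35 for NADPH and 0.30 for the osmotic list, while the median of all detected genes moved to 0.07. With the median of probes they were 0.16 for thioredoxin, 0.23 for NADPH and 0.13 for the osmotic list. With no filter on dim probes they were 0.12 for aldo-keto reductases, -0.16 for glutathione and 0.12 for the osmotic list, and glutathione was -0.31 in genes above background in both lines. Glutathione was -0.32 and NADPH 0.16 with both the scanner ratio and the value table, and NADPH was 0.15 with an offset of 0. From the arrays taken singly, thioredoxin had 0.013 and 0.050, quinones, heme and iron 0.0054 and 0.112, NADPH 0.181 and 0.186 and the osmotic list 0.146 and 0.247. The bound of *Pdgfrb* was 1.73 in log2 with an offset of 0. The cause of these shifts was not tested.

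A block for replicates was not fitted, as there is 1 replicate per line. Both arrays lie on 1 slide, so no slide effect was fitted, and Aquantile scaling changed no ratio. The spread between arrays holds dye effects and cannot be read as variation between cultures, since the labels name no separate cultures. Dim genes, such as *Nqo1*, *Gclm* and the second probe of *Hmox1*, have ratios drawn towards 0, and small differences among them are not detectable at this signal.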
